A study of Mus musculus with 2 samples.

Results

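The microRNA genes studied here lie side by side at the distal end of the imprinted Dlk1-Dio3 domain of the mouse, between Mir379 and Mir3072, and are usually called the miR-379 to miR-410 cluster. Members were taken by position: every microRNA row of the count tables placed by the GENCODE annotation between 109709000 and 109748000 on chromosome 12 (GRCm38), on either strand. This gave 38 of the 1973 microRNA genes in the tables, from 109709060 to 109747960, a span of 38.9 kb. RNA under 30 bases had been sequenced from skeletal muscle of strain B6NCrl at postnatal day 0, in 2 libraries that each came from a portion of the organ of 1 pup and that the labels number as biological replicates 1 and 2. Both samples name the same donor record, sex was not collected, and the labels give no allele, agent or treatment. With 1 group there was no condition to compare, so the values describe newborn muscle and how far the 2 libraries lay apart, a spread that may be partly technical.

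MicroRNAs are cut from hairpins folded in longer transcripts, and the arm that is loaded into Argonaute pairs through its seed, bases 2 to 8, with messenger RNAs and lowers their output. The cluster is found in placental mammals and is expressed from the maternally inherited chromosome, together with the long noncoding RNAs Meg3, Rian and Mirg. It is best known from brain and placenta, from the switch to independent glucose supply around birth, and from muscle, where the transcription factor Mef2 activates it. Each of its hairpins must be processed on its own, although neighbours are thought to be carried by common long transcripts.

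The mature sequences came from RefSeq (GRCm38.p6), which listed 69 forms for 37 of the 38 members. The tables count a gene and not an arm, so both listed forms of a gene are shown where they are given. The first set holds the 5 members with the highest levels, which together took 69.6% ± 0.744 (SD, n = 2) of the cluster's counts, with the seed in capitals and each written 5′ to 3′.
miR-487b-5p: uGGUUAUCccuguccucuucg
miR-411-5p: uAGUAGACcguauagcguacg
miR-411-3p: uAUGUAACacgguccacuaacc
miR-381-5p: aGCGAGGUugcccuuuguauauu
miR-381-3p: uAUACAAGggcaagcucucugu
miR-376a-5p: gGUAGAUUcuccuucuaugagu
miR-376a-3p: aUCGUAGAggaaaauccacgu
miR-379-5p: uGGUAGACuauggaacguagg
miR-379-3p: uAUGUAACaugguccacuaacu
The 3p forms of miR-379 and miR-411 have the same seed, AUGUAAC. Counted from the 5′ end of miR-379-3p, they differ by U10C and U22C and are identical at 20 of 22 bases. Their 5p seeds are GGUAGAC and AGUAGAC.

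The second set shows a pair in which 1 base of the seed differs while the levels of the genes lay 12.1-fold apart, again with the seed in capitals.
miR-300-3p: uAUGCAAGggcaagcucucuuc
miR-381-3p: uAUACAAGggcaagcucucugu
From miR-300-3p to miR-381-3p the differences are G4A, U21G and C22U, and 19 of 22 bases are identical. The other listed forms that match at 17 bases or more are miR-543-3p with miR-495-3p (U6A, U7A, G9A and C10U), miR-154-3p with miR-369-3p (C4A, C10U, C17U and A20U), and miR-1197-5p with miR-496a-5p (C1A, A7C, A19U and G21A).

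The next set shows a run of letters that recurs across 3p forms, ACANGG, given here in capitals and searched for on the mature strand after the sequences had been looked at.
miR-379-3p: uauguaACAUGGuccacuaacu
miR-323-3p: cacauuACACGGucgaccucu
miR-495-3p: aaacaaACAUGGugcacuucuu
miR-485-3p: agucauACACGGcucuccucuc
miR-154-3p: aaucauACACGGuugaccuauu
miR-369-3p: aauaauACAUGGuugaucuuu
miR-496a-3p: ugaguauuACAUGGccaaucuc
It was in 11 of the 69 forms of the cluster (15.9%), all of them 3p forms and each of another member, and in 44 of the 1665 forms listed elsewhere (2.64%). It began between bases 4 and 9. Where it began before base 9, its first letters lie in the seed, as AC does in the seed AUGUAAC of miR-379-3p. It lay wholly behind the seed only where it began at base 9, as in miR-496a-3p. The 5p forms have a recurring start of their own, GGUU at bases 2 to 5, which was in 9 of 69 forms (13.04%), 8 of them 5p and the other miR-453, against 4 of 1665 elsewhere (0.240%).
miR-299a-5p: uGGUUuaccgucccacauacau
miR-494-5p: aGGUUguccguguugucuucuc
miR-410-5p: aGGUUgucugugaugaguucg
miR-496a-5p: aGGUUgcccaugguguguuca
miR-409-5p: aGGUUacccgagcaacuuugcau
Both runs describe letters alone. The detected members with ACANGG had a median of 1779 CPM and those without it 2092 CPM, where CPM are counts scaled to 1000000 annotated-strand microRNA counts of the library. For GGUU the median was 983 CPM over its 9 members, among them Mir453, which was not detected and entered at 0. The detected members without GGUU had a median of 2334 CPM, so the sides were not taken alike.

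The 38 rows are 34 genes on the plus strand, on which the cluster is transcribed, and 4 genes annotated on the minus strand. Plus-strand genes were read from the annotated strand and held 0 counts on the opposite strand in both libraries. The 4 minus-strand rows, Mir299b, Gm25750, Gm25252 and Gm24321, were read from the opposite strand, which is the plus strand, as Mir299a, Mir380, Mir376a and Mir409. The plus-strand genes at those places have no rows of their own among the members, so no read was counted in 2 members. These 4 held 443123 counts in replicate 1 and 647331 in replicate 2, which was 19.9% and 19.3% of the cluster. They also made up 46.4% and 44.4% of all opposite-strand counts in the tables.

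Replicate 1 held 16398945 reads and replicate 2 held 21037937, of which 48.5% and 51.4% fell on the annotated strand of a microRNA gene. The 6 skeletal muscle microRNAs on a marker list, matching the labelled tissue, were all detected, with a sum of 109277 CPM in replicate 1 and 122729 CPM in replicate 2. Nearly all of it was Mir206 (107144 and 120690 CPM), the gene with the highest level in the tables. Mir1a-1 (10.1 and 6.47 CPM) and Mir133a-1 (5.91 and 5.55 CPM) were low in these counts, which leave out reads that fit more than 1 place. Mir126a of endothelium stood at 44986 and 47428 CPM and the smooth muscle pair Mir143 and Mir145a summed to 31531 and 28507 CPM. Mir208a, made in heart muscle, was at 15.5 and 12.1 CPM. The 11 neuronal genes in the tables, looked at because neurons also express the cluster, summed to 939 and 916 CPM, with 6 detected. Most of that sum came from Mir128-1 (485 and 427 CPM) and Mir128-2 (354 and 423 CPM). The next was Mir137 (68.5 and 47.3 CPM), and Mir9-2 and Mir9-3 were not detected. The 3 copies of Mir124a were at 0, but reads that fit more than 1 place had been set apart, so identical copies can lose their reads. The same limit holds for other numbered copies named here, such as Mir1a-1, Mir133a-1, Mir9-2 and Mir9-3. Their values do not show how much of these microRNAs the tissue held. A piece of muscle holds several cell types, and more cells of a type cannot be told apart from more RNA per cell.

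The cluster was expressed almost as a whole in newborn muscle. At least 10 counts in both libraries, the definition of a detected gene, were reached by 36 of the 38 members (94.7%), against 368 of all 1973 genes (18.7%). Its members together held 2223499 counts in replicate 1 and 3356918 in replicate 2, equal to 27.9% and 31.0% of the annotated-strand microRNA counts. The mean was 29.5% ± 2.18 (SD, n = 2). Reads that fit more than 1 place, 28.01% and 26.9% of reads in replicates 1 and 2, are not counted here. With them in the denominator the cluster's share was 19.0%. Because the opposite-strand counts of the 4 minus-strand rows are not in that denominator, the plus-strand members alone are the stricter figure, and they held 22.4% and 25.1%. Without the 4 detected members that have a stretch of 20 bases in common with another microRNA gene, the cluster's share was 17.9%. Only the cluster's counts were reduced for this figure, and the annotated-strand total stayed whole. Most of the counts left out were those of Mir487b and Mir411, since the others, Mir758 and Mir376c, stood far lower.

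**Figure D1:**
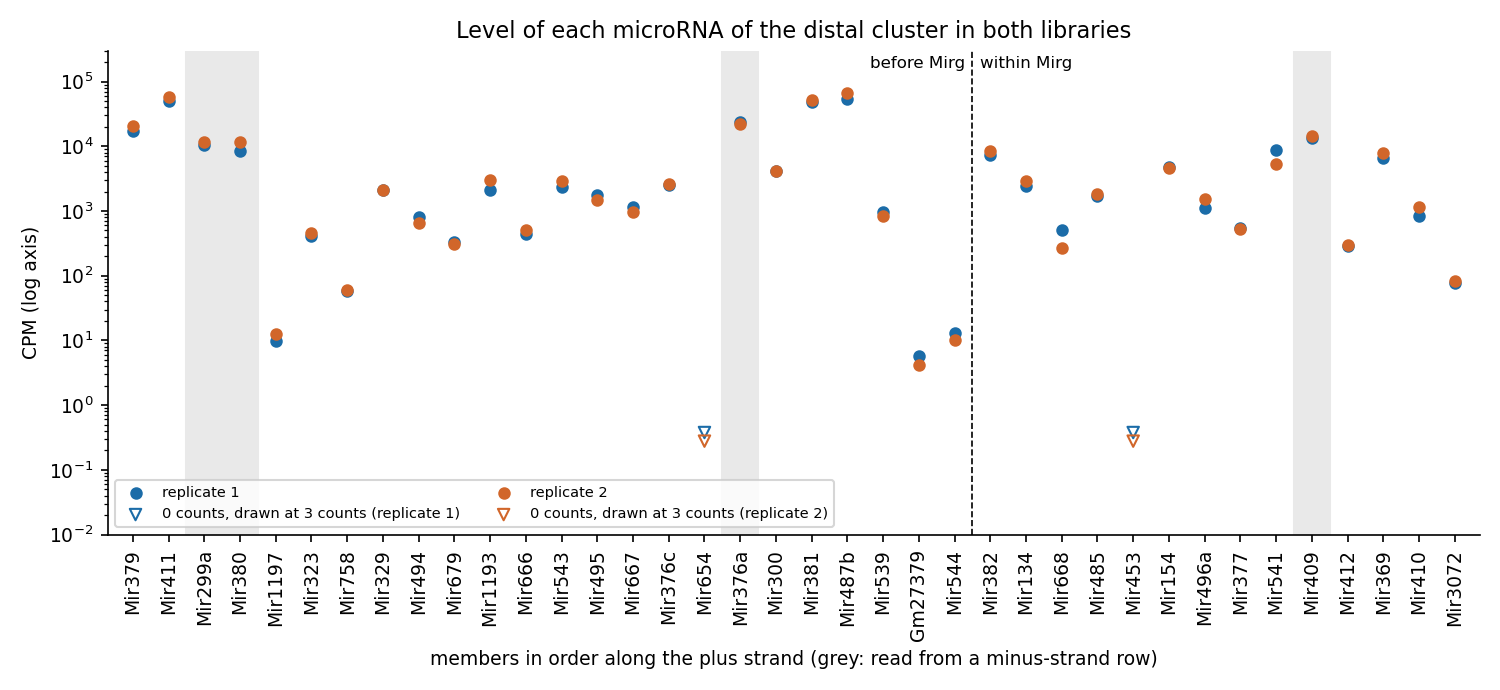
Level of each of the 38 members in CPM on a log axis, in order along the plus strand, with 1 point per library. Grey bands mark the 4 members read from minus-strand rows, triangles mark the 2 members with 0 counts, and the dashed line marks where the host gene Mirg begins. Points of the 2 libraries nearly coincide for most members, while members side by side lie up to 888-fold apart.

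Levels within the cluster ran over 4 orders on the log axis. The highest member stood 12100-fold above the lowest detected one, 8 members were over 10000 CPM, 14 were between 1000 and 10000 CPM and 14 were under 1000 CPM, 5 of these under 100. The median of the detected members was 1936 CPM, against 89.0 CPM over all detected genes. On a scale of 0 to 100 over detected genes, their median rank was 81.5. Members took 6 of the 20 highest places in the tables and 13 of the 50 highest.

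**Figure D2:**
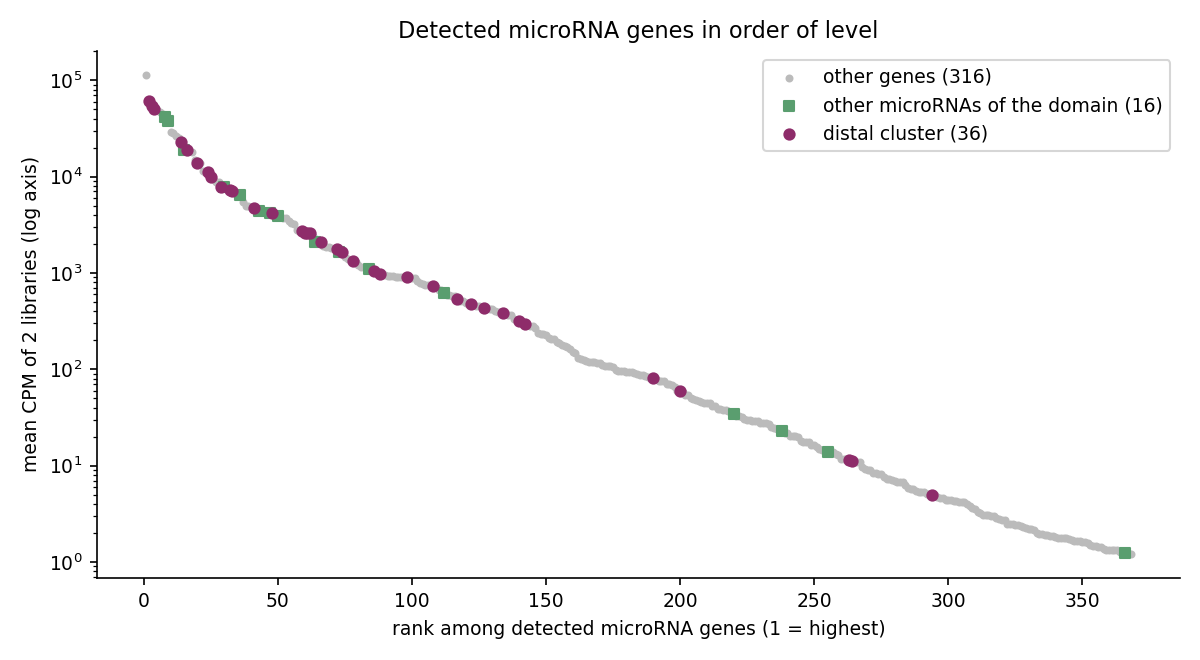
Mean level of the 368 detected microRNA genes on a log axis against their rank, with the 36 detected members, the 16 other detected microRNAs of the domain and all remaining genes in separate colours. Members fill ranks 2 to 4 and 22 of them lie above 1000 CPM, while the lowest reach below 12 CPM.

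Mir487b had the highest level, with 54621 CPM in replicate 1 and 65676 CPM in replicate 2 (60149 ± 7817), and was the second gene of the tables after Mir206. The last 20 bases of its 82-base hairpin recur in Mir376b, which has no row among the members and was not analysed here. The level of Mir487b is therefore less certain than that of members without such a stretch. Mir411, whose gene lies next to Mir379, followed with 49396 and 57496 CPM (53446 ± 5728). It has 21 bases of its hairpin in common with Mir758. Mir381 stood at 48422 and 51848 CPM (50135 ± 2423). The 3 came in this order in both libraries. The range of Mir411 overlapped those of Mir487b and Mir381, while the ranges of Mir487b and Mir381 did not overlap.

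Mir376a, whose hairpin is a classic substrate of A-to-I editing by ADAR enzymes, was read from the minus-strand row Gm25252. It reached 23583 CPM in replicate 1 and 22166 CPM in replicate 2 (22874 ± 1002), apart from Mir381 above and from Mir379 below. Edited copies could not be seen in these tables. Mir379, the first gene of the cluster, had 16997 and 20423 CPM (18710 ± 2423). Mir409, read from Gm24321, had 13290 and 14420 CPM (13855 ± 799), and Mir299a, read from Mir299b, had 10486 and 11591 CPM (11039 ± 781). From Mir381 down to Mir299a no range overlapped that of the next member.

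The ranges ran into each other in the next group. Mir380, read from Gm25750 and known for a 5p form that represses p53, had 8338 CPM in replicate 1 and 11671 CPM in replicate 2 (10004 ± 2356). Mir382 had 7304 and 8409 CPM (7856 ± 781), and Mir369 had 6652 and 7850 CPM (7251 ± 847). Mir541 went the other way, with 8858 CPM in replicate 1 and 5392 CPM in replicate 2 (7125 ± 2451), the largest SD of these 4 genes against its mean. From Mir299a to Mir541, each range overlapped that of the next member, so neighbours in this stretch are not ordered beyond their spread.

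Below them, Mir154 (4801 and 4652 CPM, 4727 ± 105) and Mir300 (4174 and 4141 CPM, 4158 ± 23.3) were each apart from the next member and nearly equal between libraries. Mir134, which limits the size of dendritic spines in neurons, had 2446 CPM in replicate 1 and 2947 CPM in replicate 2 (2697 ± 354), a range that overlapped that of Mir543 (2371 and 2864 CPM, 2618 ± 349). These close the 15 highest members, which together held 93.8% ± 0.202 of the cluster's counts. The 3 highest held 55.5% ± 1.31, the 10 highest 86.5% ± 1.38 and the 20 lowest detected members 5.33% ± 0.355.

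**Figure D3:**
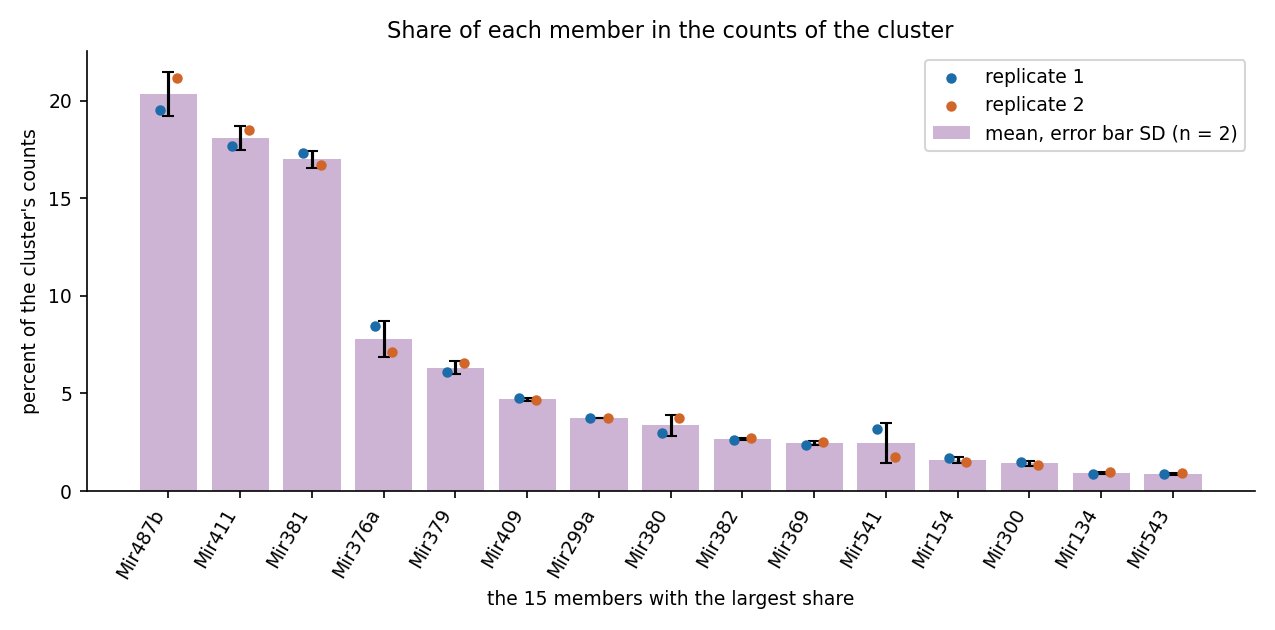
Share of the 15 highest members in the counts of the cluster, in percent, as bars for the mean of 2 libraries with SD and points for each library. Mir487b, Mir411 and Mir381 stand apart from the rest and hold 55.5% together, and only Mir541 and Mir376a have points more than 1 percentage point apart besides Mir487b.

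Several members of the lower part of the cluster are named here after their values were seen. Mir329 and Mir485, which like Mir134 are studied for their part at neuronal synapses, stood at 2092 ± 4.80 and 1779 ± 100 CPM. Mir494, which in muscle cells has been linked to mitochondrial biogenesis, was at 731 ± 111 CPM, and Mir410, which gives the cluster its name, at 983 ± 213 CPM. At the far end Mir3072 had 77.7 CPM in replicate 1 and 83.3 CPM in replicate 2. Mir544 (11.6 ± 2.12), Mir1197 (11.2 ± 2.18) and Gm27379 (4.97 ± 1.15 CPM, from 46 and 45 counts) were the lowest detected members. Mir654, in front of Mirg, and Mir453, in an intron of Mirg, had 0 counts in both libraries, which allows up to 3 counts, or 0.377 CPM in replicate 1 and 0.277 CPM in replicate 2. Such floors and all intervals given here cover counting error only.

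The order of the members was much alike in the libraries. 16 members held the same place, the largest shift was 4 places, and Spearman's rho of CPM across the 36 detected members was 0.990. That value is across genes of the same libraries, which are not independent replicates. In CPM, which are scaled to library totals, the SD between libraries had a median of 10.3% of the mean over members. Over all detected genes, whose levels were lower, it was 16.3%. The order turns with the scaling: after TMM, described below, the median absolute log2 ratio was 0.35 over members and 0.31 over all detected genes.

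Grouped by what they could pair with, the members were mostly singletons. The 69 forms held 64 different seeds, of which 5 were shared by 2 members each. Genes with the seed AUGUAAC, Mir379 and Mir411, held 23.8% of the cluster's counts in replicate 1 and 25.1% in replicate 2. Mir379 and Mir1193 have the 5p seed GGUAGAC in common and held 6.85% and 7.56%. The groups of GGUUGUC (Mir494 and Mir410), GGUUGCC (Mir453 and Mir496a) and GGUUGAC (Mir1197 and Mir758) each held under 1%, with means of 0.582%, 0.447% and 0.0239%. Since arms were not counted apart, a listed form with that seed can hold at most these shares. In all, the 9 members of a shared seed group held 26.4% ± 1.16 of the cluster.

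Seeds tied a few members to genes elsewhere in the genome. 10 seeds of the cluster occurred in listed microRNAs outside it, among them ACACACC of miR-329-3p, found also in Mir362, and AGGUCAC of miR-1193-3p, found also in Mir370 of the same domain. AUAUAAC of miR-410-3p was found also in 4 genes of the Mir344 family. The mature forms were otherwise distinct: the longest run of a form that recurred in another annotated hairpin had a median of 10 bases, and 1 form, miR-376c-5p, reached 18 bases, in Mir376b.

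Level changed abruptly from gene to gene along the chromosome. Over the 35 pairs of neighbouring detected members, the median difference was 5.50-fold, 11 pairs differed more than 10-fold in both libraries, and 34 pairs had the same member higher in both. The median step was 2.46 on the log2 scale against a median SD between libraries of 0.161. The exception in direction was Mir299a with Mir380, whose ranges overlap. Mir1197 lay 426 bases behind Mir380 and was 862-fold lower in replicate 1 and 915-fold lower in replicate 2. Mir412, 51 bases behind Mir409, was 45.4-fold and 47.8-fold lower. Mir369, a further 49 bases on and known for a 3p form that can raise translation in resting cells, was 22.7-fold and 26.0-fold higher than Mir412. Mir539 was 57.1-fold and 78.4-fold lower than Mir487b, 714 bases before it. A pair of high members also lay together, Mir381 and Mir487b, 436 bases and 1.20-fold apart.

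**Figure D4:**
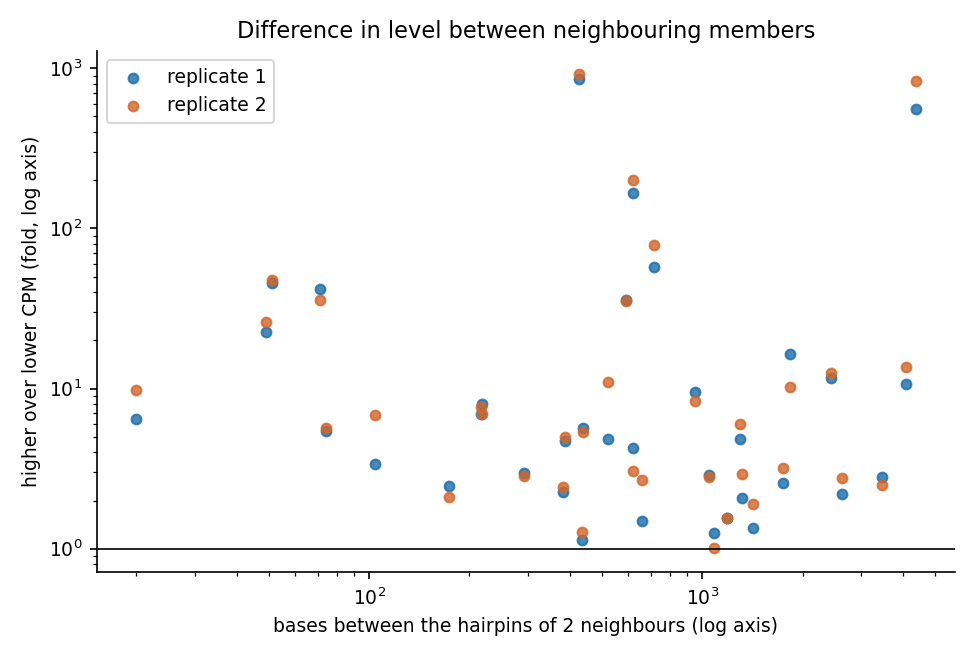
Fold difference in level between each of 35 pairs of neighbouring detected members against the bases between their hairpins, both on log axes, with 1 point per library. Pairs under 100 bases apart are 5-fold to 50-fold apart, and the points of the libraries lie close to each other for most pairs.

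Pairs that lay closer together were not nearer in level. The 22 pairs under 1 kb apart had a median difference of 7.29-fold and the 13 pairs further apart one of 2.86-fold, described here without a test since neighbouring pairs have members in common. Gaps ranged from 20 to 4368 bases with a median of 590. Mirg (109729764 to 109749460 on chromosome 12, plus strand) covers the distal 14 members: 4 lie in its exons, 5 partly in an exon and 5 in introns. The 24 members before Mirg held 83.4% ± 1.01 of the cluster's counts and the 14 within it 16.6% ± 1.01. Their detected members had medians of 2092 and 1779 CPM, and the 5 highest members all lie before Mirg.

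Other features varied only loosely with level. Spearman's rho with the mean level across the 36 detected members was -0.11 for position, -0.37 for the GC content of the hairpin and -0.34 for its length, given as descriptions over genes of the same libraries. Hairpins of all members, detected or not, had a median GC content of 44.4%, from 29.1% for Mir376c to 72.3% for Mir3072. All detected genes had a median of 50.6%. Base composition can itself enter library preparation, and its part in these levels was not tested.

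Between the libraries most members leaned the same way. Ratios of replicate 1 over replicate 2 were taken after TMM scaling, which sets library sizes by the bulk of genes, and the pair of counts of each gene was put to a two-sided exact binomial test, Benjamini-Hochberg adjusted over all 368 detected genes. The test compares 2 libraries, with counting error as its only error. The median log2 ratio was -0.33 over the members and 0.03 over all detected genes, with 29 members below 0 and 7 above. At an adjusted p of 0.05 in that exact test, 28 members were lower in replicate 1, where 31.0% of all detected genes were, and 3 were higher, where 30.7% of all were. High genes pass this test more readily: of the 54 genes over 1000 CPM outside the domain 32 were lower (59.3%), and of the 22 members over 1000 CPM 19 were (86.4%). No member was at least 2-fold lower, against 1.09% of all detected genes, and none was at least 2-fold higher, against 6.25% of all. With a 1.5-fold minimum 5 members were lower, against 5.16% of all, and 1 was higher, against 14.9% of all. At an unadjusted p under 0.05, with no fold minimum, 31 of the 36 differed, where 64.4% of all detected genes did.

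The scaling moves these signs. With library totals in place of TMM the median of all detected genes was 0.26 and that of the members -0.10, with 23 members below 0. At the same adjusted p, 18 members were then lower, where 16.8% of all detected genes were, and 9 higher, where 47.6% of all were. Scaling moves every gene by the same amount, so the distance of the members' median from that of all genes, -0.36, is the same under any of them by construction. Summed marker levels of other cell types also differed between the libraries: those of red blood cells were 583 and 286 CPM in replicates 1 and 2, those of epithelium 531 and 334 CPM and those of fibroblasts 6717 and 5017 CPM. Of the 6 skeletal muscle markers, Mir206 and Mir208b were higher in replicate 2 in CPM and the other 4 in replicate 1. Their part in the ratios of the cluster was not tested.

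**Figure D5:**
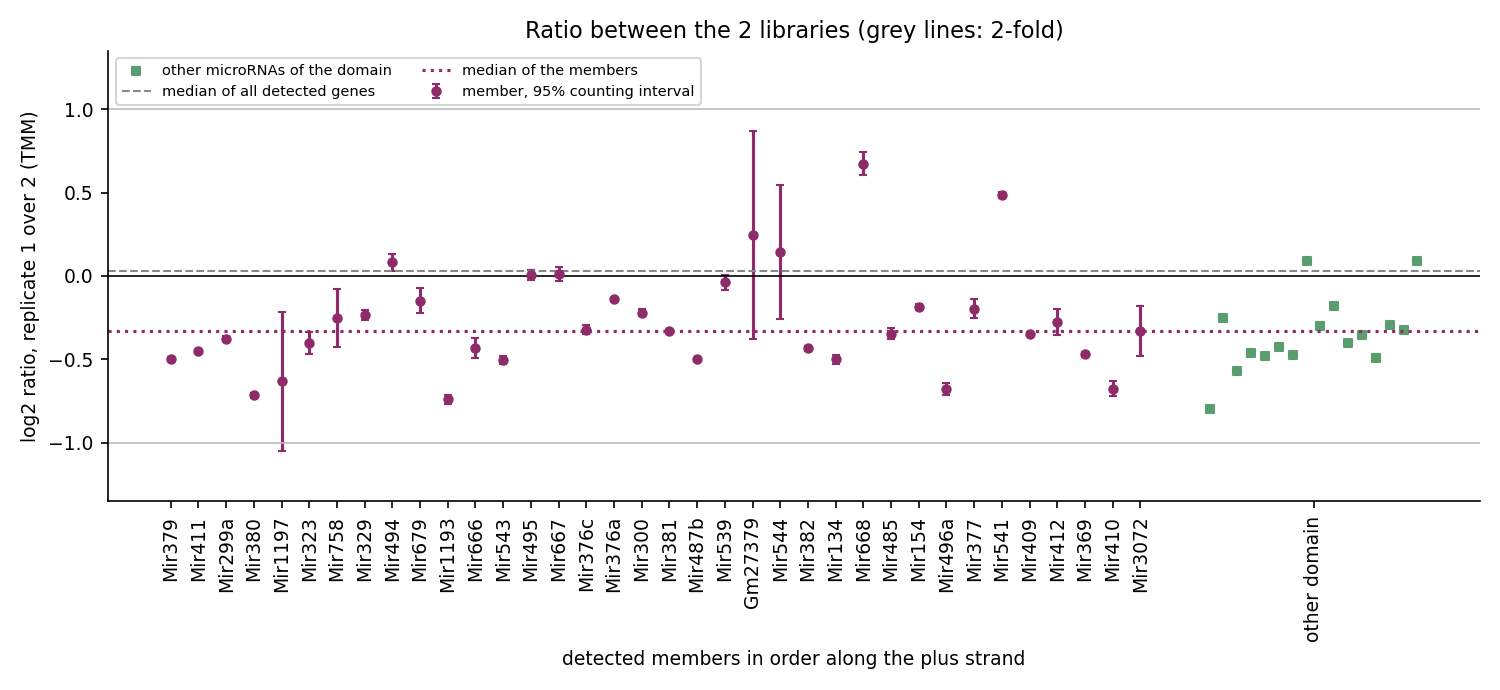
Log2 ratio of replicate 1 over replicate 2 after TMM scaling for the 36 detected members in order along the plus strand, with 95% counting intervals, and for 16 other microRNAs of the domain at the right. Most members lie near their median of -0.33, 7 lie above 0 with Mir668 and Mir541 highest, and no ratio reaches the grey lines at 2-fold. The counting interval of Mir1197 extends to -1.05, past the lower line.

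Mir1193 had the lowest ratio, with 2137 CPM in replicate 1 and 3043 CPM in replicate 2 and a log2 ratio of -0.74 (95% counting interval -0.77 to -0.71). Mir668 had the highest, with 504 and 269 CPM and a log2 ratio of 0.67 (0.60 to 0.74, exact binomial test, adjusted p = 2.34e-82). Mir541, among the high members, had 0.49 (0.47 to 0.50). Mir494, the other member higher in replicate 1, had 0.08 (adjusted p = 0.00216 by the exact test). Under library totals, which raise every ratio alike, Mir541 and Mir668 stood at 0.72 and 0.90. Mir495, Mir667, Mir539, Mir544 and Gm27379 did not pass the adjusted p. Position went little with the ratio (Spearman's rho 0.16 across 36 members, a description), and so did hairpin GC content (-0.08).

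The other microRNAs of the domain, between Dlk1 and Mir379, gave a similar picture at a smaller scale. Of their 20 rows 16 were detected, holding 11.8% of annotated-strand counts in replicate 1 and 14.2% in replicate 2. The cluster held 2.38 and 2.19 times their counts. The highest were Mir431 (33048 and 48970 CPM), Mir127 (37145 and 37634 CPM) and Mir434 (16685 and 21122 CPM), all antisense to the gene Rtl1. The median log2 ratio of the 16 detected was -0.38, and -0.15 under library totals. At the adjusted p of the exact test after TMM, 12 were lower in replicate 1, where 31.0% of all detected genes were. At the same adjusted p 1 was higher, where 30.7% of all were. Mir3071, annotated on the minus strand, was read by the same rule from the opposite strand with 180 and 256 counts. Its annotated-strand counts of 23226 and 26333, which entered the denominator alone, are outside these figures.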

How the data were processed

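The authors' deposited tables, 1 per library, give raw counts per microRNA gene, with columns for both strands and for each strand; which strand column is the annotated strand was read from the values. Assembly mm10 and annotation GENCODE M4 are named by the readme text of each table, per the file headers; which programs aligned and counted is not given in the sources used here. Unmapped reads (16.0% and 13.4% in replicates 1 and 2), reads outside any gene (1.60% and 1.43%) and reads that fit more than 1 place (28.01% and 26.9%) stayed out of library sizes. The cluster, the lists and the named members were chosen with earlier results of these data known.

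Positions came from GENCODE M21 (GRCm38, the assembly of mm10) by gene ID without version, which matched 1894 of 1973 rows. Of the 38 members, 25 had the same ID version. CPM were scaled to the annotated-strand microRNA counts, 7955914 and 10816295. Detected meant at least 10 counts in both libraries. TMM factors were 1.083 and 0.923 (edgeR 4.0.16, R 4.3.3). Counts were compared by an exact binomial test (scipy 1.17.1) at an adjusted p of 0.05 and 2-fold, checked on simulated data. Named members were the 15 highest, the first and last, the minus-strand rows, the undetected, those past the test and those with the extreme ratios; others were chosen after their values were seen. A gene was said to have a stretch in common where 20 bases of the hairpin occur in another microRNA hairpin of the annotation. Alternatives were unstranded counts, plus-strand rows alone, library totals, size factors of DESeq2 1.42.0, count minimums of 1 and 50, a 1.5-fold minimum, other denominators, omission of genes with common stretches and of each library.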

Additional observations from a re-analysis of the deposited data

Results flagged for a closer look

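The minus-strand row Mir299b, read from its opposite strand as Mir299a, also held 59 counts in replicate 1 and 118 in replicate 2 on its annotated strand, above the 3 counts that a count of 0 allows. They stand beside 83429 and 125377 counts on the strand used.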

How the results depend on the processing

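With the members' share of annotated-strand counts at 29.5%, it was 23.7% from plus-strand rows alone and 26.15% from unstranded counts. It was 19.0% with reads of more than 1 place in the denominator. Without the members that have 20 bases in common with another gene it was 17.9%, over the unreduced annotated-strand total. A denominator of both strands, chosen after seeing the data, gave 26.15%. Single libraries gave 27.9 to 31.0%. The median rank of 81.5 became 88.5 and 76.8 at count minimums of 1 and 50, 80.4 from plus-strand rows, 80.9 unstranded, 77.4 without genes with common stretches and 81.7 to 82.0 from single libraries. The 5 highest members held 80.2% from plus-strand rows and 65.3% without genes with common stretches, and the AUGUAAC group 30.4% from plus-strand rows; without genes with common stretches it was not run, since Mir411 drops out. The median log2 ratio was -0.10 under library totals. With the adjusted p alone 28 members were lower in replicate 1 and 3 higher, where 31.0% and 30.7% of all detected genes were. With a 1.5-fold minimum 5 members were lower and 1 higher, where 5.16% and 14.9% of all were. The number detected was 35 or 36 under the alternatives that kept all members. It was 32 from plus-strand rows alone and 32 without genes with common stretches, settings that each leave out 4 detected members beforehand. No ratio can be made from 1 library. No paired analysis was possible because there is 1 group. Counts are per gene, so arms, edited forms and reads of more than 1 place are outside what the tables can show.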
